A study of Mus musculus with 12 samples.

Results

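The genes described here are the mouse forms of 34 genes that are mutated in inherited neuropathy, hereditary spastic paraplegia or motor neuron disease. They were taken by symbol from a fixed list of names, and all 34 were found among the 38924 genes of the deposited tables. No measured value entered the choice, but the list was proposed with earlier results of these data known. All 34 passed the filter on low counts, which kept 17765 genes. The lowest count of any of them in any library was 42.

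Inherited neuropathies damage the long axons of motor and sensory neurons or the Schwann cells that wrap them, and spastic paraplegias damage the long descending axons of the cord. The genes behind them cluster in a few kinds of cell biology. These are mitochondrial fusion and fission, turnover of endosomes and of the phosphoinositide lipids that mark them, shaping of the endoplasmic reticulum, transport along microtubules, and the handling of RNA and misfolded protein. The mutated gene of the mice studied here, Gars, encodes glycyl-tRNA synthetase, which charges transfer RNA with glycine, and dominant changes in its human form cause an axonal neuropathy.

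The data are polyA libraries of whole spinal cord RNA from mice of 8 weeks of age on the B6J.Cg strain background. The 12 libraries were either wild type or carried 1 copy of the Gars C201R change, and no other allele or treatment is named. The titles put 3 libraries in each of 4 groups of genotype and sex, or 6 against 6 by genotype. The library names in the sample descriptions also split 6 against 6, but 4 libraries carry opposite genotypes in the title and the library name. Libraries 4 and 9 are WT by title and C201R by library name, and the reverse holds for libraries 11 and 12. Each comparison is therefore given by both labels and over the 8 libraries whose labels agree. The labels do not state that each library came from a separate mouse, so the p-values rest on the spread among libraries.

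Libraries held between 27175421 and 38271405 counts. Xist, the RNA made from the inactive X chromosome of females, stood at 109 to 129 TPM in 6 libraries and at 0.02 TPM or less in the others. It went against the titled sex in 6 of 12 libraries. The term for titled sex in the fits below therefore does not follow Xist, and no fit held sex as read from Xist. High Xist was found in 3 of 6 libraries of each genotype by library name, in 5 of 6 C201R and 1 of 6 WT libraries by title, and in 3 of 4 against 1 of 4 of the 8 libraries whose labels agree. The tissue was checked against lists of marker genes, as summed TPM per library. Motor neuron markers, 9 genes detected in every library, summed to 211 to 285 in C201R and 327 to 489 in WT libraries by library name, without overlap, and to 211 to 407 and 229 to 489 by title. The oligodendrocyte list, 10 of 10 genes detected in every library, summed to 23632 to 28888 in C201R and 26140 to 30433 in WT by library name. Schwann cell markers, 10 of 10 detected in every library, summed to 843 to 1708 in C201R and 601 to 2324 in WT, and skeletal muscle markers, 12 of 12, to 149 to 3854 and 165 to 3407. Of all markers searched, only the fat genes Lep, Plin1 and Cidec had a count of 0 in any library, in 8, 2 and 1 libraries. In bulk tissue, fewer cells of a type and less RNA per cell cannot be told apart.

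Most of the 34 genes were well expressed in the cord. Levels between genes are compared as TPM, a unit that divides by transcript length. The mean over 12 libraries ran from 1.26 TPM for Trpv4 to 524 TPM for Sod1, with a median gene at 57.4 TPM against 13.6 TPM over all genes tested, and 29 of 34 lay above that median. Sod1, the cytosolic copper-zinc superoxide dismutase, stood at 524 ± 27.6 TPM (SD, n = 12). Hint1, a nucleotide hydrolase lost in a motor neuropathy with neuromyotonia, followed at 396 ± 27.7 TPM, and Wnk1, a kinase that regulates chloride transport, at 307 ± 20.2 TPM. Sod1 lay above Hint1 in every library, since the lowest Sod1 value was 480 TPM and the highest Hint1 value 443 TPM. At the low end were the ion channel gene Trpv4 at 1.26 ± 0.22 TPM, the copper pump gene Atp7a at 5.17 ± 0.58 TPM and Sh3tc2, which acts in endosomal recycling in Schwann cells, at 5.89 ± 0.34 TPM. The ranges of Atp7a (4.20 to 6.06 TPM) and Sh3tc2 (5.31 to 6.38 TPM) overlapped, and Trpv4 (0.91 to 1.59 TPM) lay below both in every library.

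**Figure D1:**
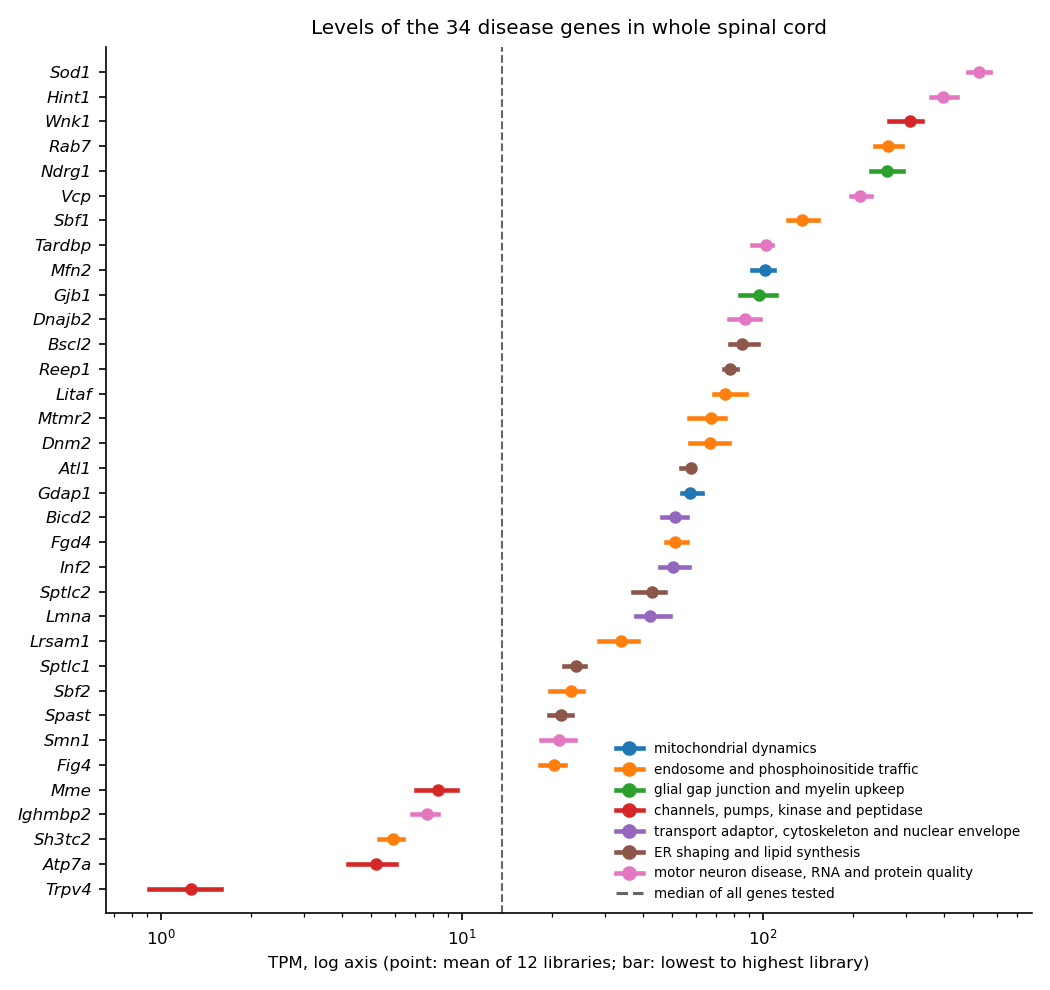
Mean TPM of each of the 34 genes over the 12 libraries on a log axis, with bars from the lowest to the highest library and colours for the role of the gene. The genes span 1.26 to 524 TPM, and 29 lie to the right of the dashed line, the median of all genes tested (13.6 TPM).

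Many of these genes also varied little between libraries. The coefficient of variation of CPM, the count scaled to a common library size, had a median of 5.55% over the 34 genes and 7.97% over all genes tested, and 6 of 34 exceeded the latter. Rab7, the small GTPase of late endosomes, varied by 1.45%, which placed it at the 0.05 percentile of all genes tested. Its CPM ran from 246 in library 4 to 260 in library 11. That steadiness was in CPM only: the TPM of Rab7 ran from 237 to 290, at 260 ± 16.6 (SD, n = 12). The mitochondrial fusion gene Mfn2 (2.91%) and the endoplasmic reticulum GTPase gene Atl1 (3.39%) came next. The widest spreads belonged to Trpv4 (16.8%), Atp7a (11.4%) and Mme, the gene of the peptidase neprilysin (9.67%), which were also 3 of the 5 genes below the all-gene median level. Counts were ample for most of the list, as 27 of the 34 averaged over 1000.

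By library name, no gene of the 34 passed an adjusted p of 0.05 in the edgeR fit that also held titled sex, where 0.715% of all genes tested did. DESeq2 called 2 of the 34, Lrsam1 and Bicd2, both lower in C201R, where it called 1.79% of all genes. The log2 differences, C201R minus WT, ran from -0.19 for Atp7a to 0.10 for Ighmbp2, or from -12.1% to 7.20%. They were negative for 23 genes and positive for 11, with a median of -0.055, beside 49.1% negative and a median of 0.0023 over all genes tested. At an unadjusted p under 0.05 stood 11 of 34 genes (32.4%), against 12.8% of all genes tested. Of these, 10 were negative, against 6.81% of all genes, and 1 positive, against 5.98%. The count of 11 rested on the libraries and the scale. It was 5 without library 1, 6 without library 4 or 12, 7 without library 6 or 7 and 15 without library 9. The share of all genes moved as well, from 9.47% without library 1 to 15.0% without library 9. With limma on log2(TPM + 1) the count was 4, of which 2 were negative, against 10.2% of all genes. On that scale 21 of the 34 were negative with a median of -0.026, beside 34.6% and a median of 0.031 over all genes. Without the 3 libraries of most skeletal muscle transcripts (1, 3 and 8) the edgeR count was also 4, where 1378 of all 17765 genes tested stood under 0.05. The 95% interval of the difference lay within a 1.25-fold change in either direction for 32 of 34 genes, against 65.1% of all genes, and Atp7a and Trpv4 were the exceptions. As given above, 29 of the 34 genes stood higher and 28 varied less than the median gene, and the part of this in the counts was not tested.

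**Figure D2:**
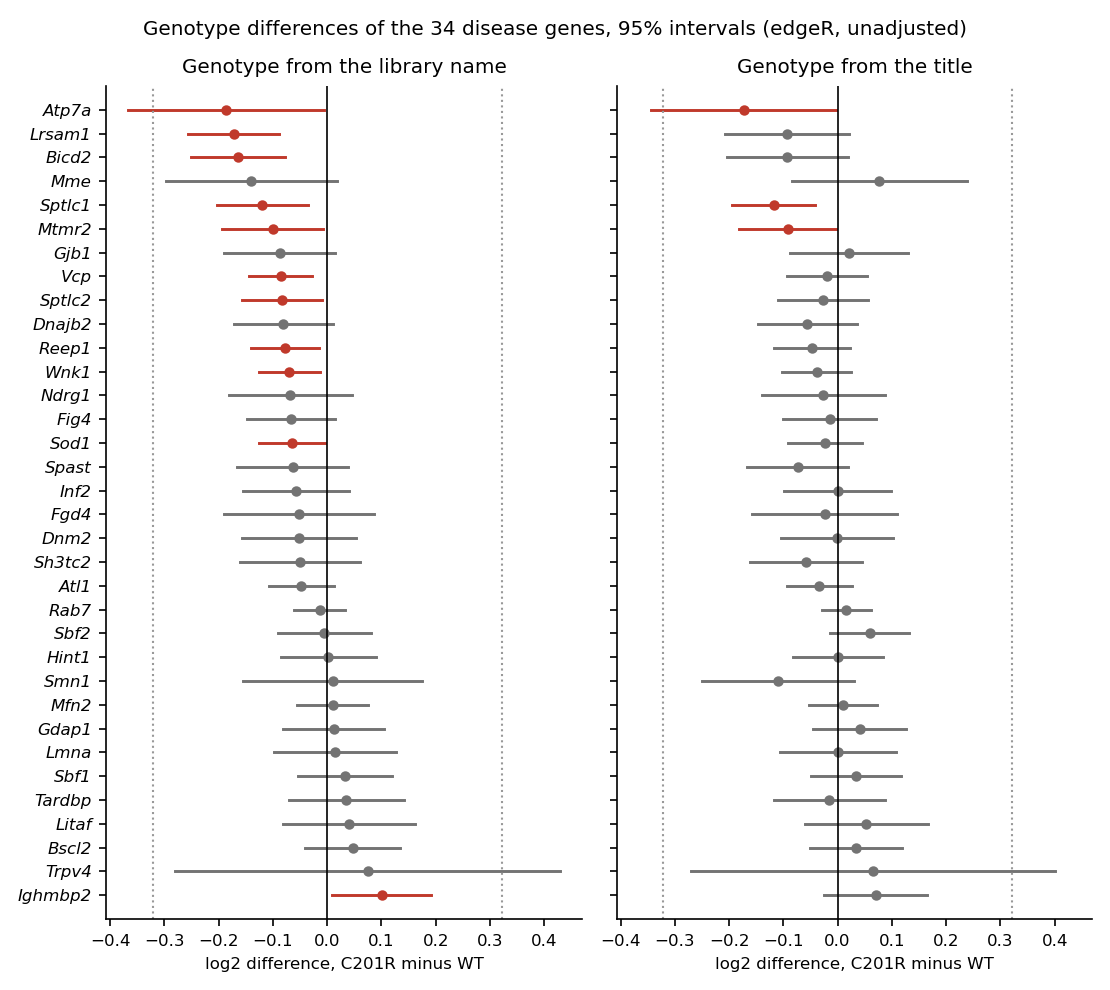
Log2 difference between C201R and WT libraries for each of the 34 genes with its unadjusted 95% interval, by the genotype in the library name (left) and in the title (right). Red intervals exclude 0, for 11 genes on the left and 3 on the right, and dotted lines mark 1.25-fold.

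Of the 10 genes that serve endosomes and phosphoinositides, 8 had a negative difference by library name, with a median of -0.051, and none passed the adjusted threshold. Lrsam1, a ubiquitin ligase that acts on the endosomal sorting machinery (chr2:32925216-32961614, minus strand, GRCm38), had the lowest p of all 34. Its CPM was at least 53.1, with a median of 55.4 and at most 59.0, in C201R libraries, and 60.7, 61.4 and 68.7 in WT libraries. Every C201R library by library name lay below every WT library. Lrsam1 was the only gene of the 34 whose groups did not overlap, where 1.05% of all genes tested lay lower in C201R without overlap. Of all 17765 genes tested, 104 lay higher without overlap. The means of Lrsam1 were 55.5 ± 2.16 and 63.1 ± 3.27 CPM (SD, n = 6). Its log2 difference was -0.17 ± 0.04 (SE), or -11.3% (95% interval -16.3 to -5.92%). The adjusted p of edgeR was 0.0746, and over the 23 alternatives it ranged from 0.0135 with DESeq2 to 0.526. It passed in 4 of them, namely DESeq2, voom with quality weights, the fit without titled sex and the fit without library 9. Lrsam1 overlaps the genes Rpl12 and Fam129b on the opposite strand, and whether strand was used in counting is not stated. Those neighbours had log2 differences of 0.01 ± 0.08 for Rpl12 and 0.03 ± 0.04 for Fam129b, with adjusted p of 0.973 and 0.849.

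The other genes of the endosomal group stood closer to 0. Mtmr2, a myotubularin lipid phosphatase that trims phosphoinositides, ranged from 79.3 through a median of 87.1 to 92.6 CPM in C201R and from 89.0 through 92.3 to 100 CPM in WT libraries, with overlapping groups. Its log2 difference was -0.10 ± 0.04, with an adjusted p of 0.352. Sbf1 and Sbf2, the partners that bind it, resemble the phosphatase but lack its activity. Their differences were smaller in size, at 0.033 ± 0.040 and -0.005 ± 0.039, and only that of Sbf2 was negative. Litaf, a membrane protein of late endosomes, stood at 0.040 ± 0.056. The sign of Litaf turned to -0.086 without the muscle-rich libraries, and that of Sbf1 to -0.028. Fig4, a lipid phosphatase of the endolysosome, had -0.07 ± 0.04, Dnm2, a dynamin that pinches vesicles from membranes, -0.05 ± 0.05, and Fgd4, an exchange factor that acts on the actin cytoskeleton, -0.05 ± 0.06. Rab7 was at -0.014 ± 0.022, with a 95% interval of -4.15 to 2.30%.

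The 3 genes of transport and scaffolding held the second lowest p. Bicd2 (chr13:49341585-49387026, plus strand, GRCm38) encodes an adaptor that ties cargo to the motor dynein, and it is mutated in a dominant spinal muscular atrophy of the lower limbs. Its CPM was 124, 130 and 146 (lowest, median, highest) in C201R libraries and 141, 144 and 156 in WT libraries. Library 9, named C201R and titled WT, was alone among the C201R libraries in reaching into the WT range. The means were 132 ± 7.86 and 146 ± 6.05 CPM, and the log2 difference was -0.16 ± 0.04, or -10.7% (95% interval -15.9 to -5.21%). The adjusted p was 0.09996 with edgeR and 0.0150 with DESeq2, and ran from 0.0150 to 0.688 over the 23 alternatives. Without library 9 the difference was -0.18 ± 0.03 with an adjusted p of 0.0244. Inf2, a formin that organises actin, and Lmna, which encodes the lamins of the nuclear envelope, stood at -0.06 ± 0.05 and 0.01 ± 0.05.

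**Figure D3:**
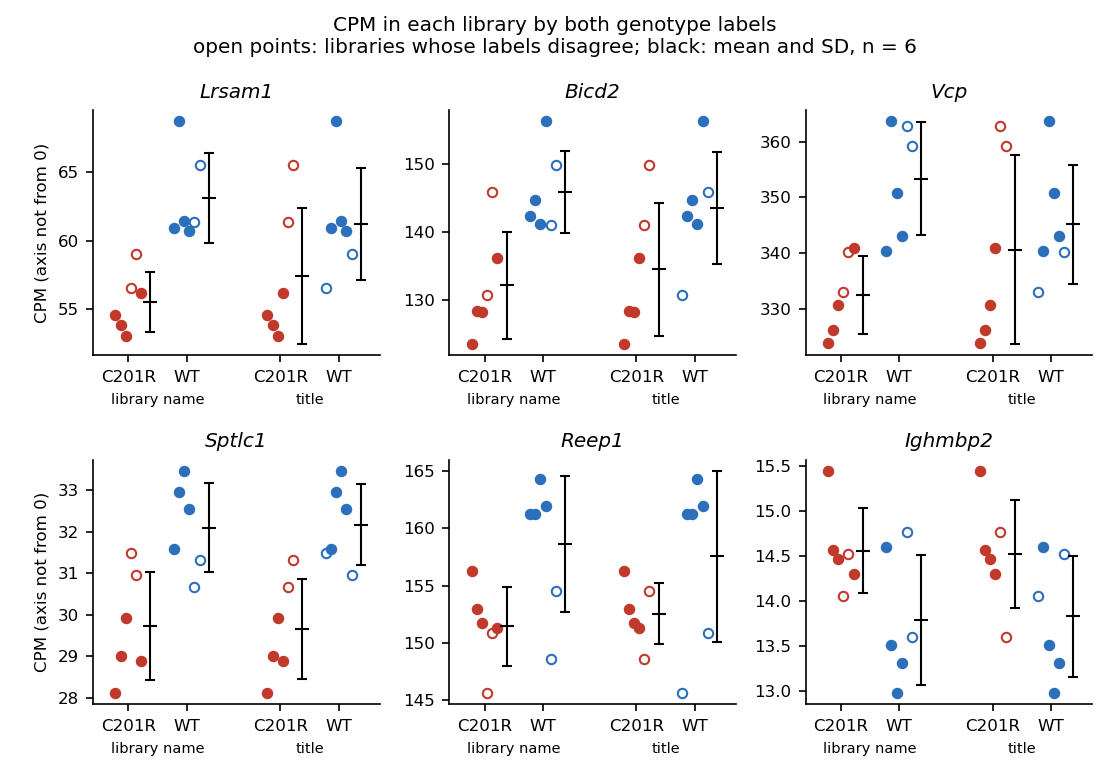
CPM of 6 genes in each library, split by the genotype in the library name and by that in the title, with the mean and SD of each group of 6 beside the points. Open points are the 4 libraries whose labels disagree. Lrsam1 does not overlap by library name, with at most 59.0 CPM in C201R and at least 60.7 CPM in WT.

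The stretch upstream of Bicd2 is shown because Bicd2 had the lowest p of the genes whose upstream window is free of annotated exons; the window of Lrsam1 is covered by exons on the opposite strand. RefSeq (GRCm38.p6) places the start of Bicd2 at position 49341549 of chromosome 13. The 250 bases before it, chr13:49341299-49341548 on the plus strand, hold 57.6% G and C and 18 CG pairs, and are all in lower case because none of the motifs searched was found.
Bicd2 upstream: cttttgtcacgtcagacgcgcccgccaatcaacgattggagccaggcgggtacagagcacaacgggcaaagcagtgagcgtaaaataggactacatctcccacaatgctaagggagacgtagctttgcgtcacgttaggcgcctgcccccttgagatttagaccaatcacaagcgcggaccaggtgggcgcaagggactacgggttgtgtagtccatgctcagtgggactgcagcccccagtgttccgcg
RefSeq windows were matched by symbol for 30 of the 34 genes, in 48 windows. The element of Atf4, TGATGNAAN read on both strands, was in none of these 48 windows, against 3.95% of the 32851 windows of all genes. Atf4 is the transcription factor of the integrated stress response. The palindromic core element of Nrf1, also searched on both strands, was found for 1 of the 30 genes, Mtmr2. It was in 0.971% of all windows, a share of windows and not of genes. The cyclic AMP response element TGACGTCA was in none of the 48 windows, against 1.79% of all windows.

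Among the 6 genes of endoplasmic reticulum shape and lipid synthesis, 5 had a negative difference by library name, with a median of -0.071. Sptlc1, a subunit of serine palmitoyltransferase, which starts sphingolipid synthesis, stood at 28.1, 29.5 and 31.5 CPM (lowest, median, highest) in C201R and 30.7, 32.1 and 33.5 CPM in WT libraries. The groups overlapped, through libraries 4 and 9 on the C201R side and 11 and 12 on the WT side, the 4 whose labels disagree. The log2 difference was -0.12 ± 0.04, with an adjusted p of 0.206. The partner subunit Sptlc2 had -0.08 ± 0.03 and an adjusted p of 0.336. Reep1, which bends the membrane of endoplasmic reticulum tubules, ranged over 146, 152 and 156 CPM in C201R and 149, 161 and 164 CPM in WT libraries. The 4 WT libraries with matching labels lay above all C201R libraries, and libraries 11 and 12 lay among them. The difference of Reep1 was -0.08 ± 0.03, with an adjusted p of 0.281. Atl1, the atlastin that fuses such tubules, stood at -0.05 ± 0.03, and Spast, the microtubule-severing enzyme spastin, at -0.06 ± 0.05. Bscl2, the seipin of lipid droplet assembly, was the exception in sign, at 0.05 ± 0.04 with an adjusted p of 0.696.

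The 7 genes of motor neuron disease and of RNA and protein quality control were split, with 3 negative, 4 positive and a median of 0.002 by library name. Vcp, an ATPase that extracts proteins for degradation, stood at 324, 332 and 341 CPM in C201R and 340, 355 and 364 CPM in WT libraries. The ranges met within 1 CPM, with library 10 of C201R just above library 5 of WT. The log2 difference of Vcp was -0.09 ± 0.03, with an adjusted p of 0.193, and a related gene of the tables, Vcp-rs, could take a share of its reads. Ighmbp2, a helicase whose loss causes spinal muscular atrophy with respiratory distress, was the only gene of the 34 with a positive difference at an unadjusted p under 0.05. It stood at 14.1, 14.5 and 15.4 CPM in C201R and 13.0, 13.6 and 14.8 CPM in WT libraries, with overlapping groups, and its log2 difference was 0.10 ± 0.04 with an adjusted p of 0.350. Sod1 had -0.07 ± 0.03 (adjusted p = 0.359) and Dnajb2, a neuronal chaperone partner, -0.08 ± 0.04 (adjusted p = 0.456). Smn1, the survival motor neuron gene whose product assembles splicing particles, stood at 0.01 ± 0.08, and Tardbp, an RNA-binding protein that aggregates in motor neuron disease, at 0.035 ± 0.049. The sign of Tardbp turned to -0.047 when library number was a term. Hint1 stood at 0.002 ± 0.040, with a 95% interval of -5.71 to 6.37%.

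The channel, pump, kinase and peptidase genes held the widest intervals. Atp7a, an X-linked copper pump of the secretory pathway, ranged over 10.3, 11.2 and 14.3 CPM in C201R and 12.5, 12.8 and 15.2 CPM in WT libraries. Library 9 stood apart from the other C201R libraries, which stayed below the WT range. The log2 difference was -0.19 ± 0.08, or -12.1% (95% interval -22.5 to -0.451%), with an adjusted p of 0.379. Wnk1 had -0.07 ± 0.03 (adjusted p = 0.289), Mme -0.14 ± 0.07 (adjusted p = 0.465) and Trpv4 0.07 ± 0.16, for which changes between -17.7% and 34.6% lay in the interval. The 2 mitochondrial genes stood near 0, Mfn2 at 0.010 ± 0.030 and Gdap1, a protein of the outer mitochondrial membrane, at 0.012 ± 0.043. The 2 genes of myelinating glia, the gap junction gene Gjb1 and Ndrg1, had -0.09 ± 0.05 and -0.07 ± 0.05. The sums of the oligodendrocyte and Schwann cell markers above overlapped between the groups, and their part in the glial values was not tested.

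By title, none of the 34 genes passed with edgeR, where 0.0% of all genes tested did, and DESeq2 called none of them and 0.101% of all genes. At an unadjusted p under 0.05 stood 3 of 34 (8.82%), against 6.77% of all genes tested, and all 3 were negative, against 3.28%. The count was 7 without library 4, 6 without library 12 and 1 without library 2, 6 or 7. When each library was left out, the share of all genes ran from 4.95% to 9.01%, the latter without library 4. With limma on log2(TPM + 1) the count was 1, with a positive difference, against 5.96% of all genes. On that scale 12 of the 34 were negative, against 33.5% of all genes, whose median stood at 0.026. In the edgeR fit the log2 differences ran from -0.17 to 0.08, with a smallest adjusted p of 0.640. Of these, 21 were negative and the median was -0.017, beside 49.3% negative and a median of 0.0012 over all genes tested. Sptlc1 had the lowest p, with 28.1, 29.5 and 31.3 CPM in titled C201R and 31.0, 32.1 and 33.5 CPM in titled WT libraries. The overlap was narrow, and came from library 12 above library 9. Its log2 difference was -0.12 ± 0.04, with an adjusted p of 0.640, and it was negative under all 23 alternatives, from -0.13 to -0.085. Mtmr2 followed at -0.09 ± 0.04 and Atp7a at -0.17 ± 0.08, both with an adjusted p of 0.733. The lowest p among positive differences belonged to Sbf2 at 0.06 ± 0.03, Ighmbp2 at 0.07 ± 0.04 and Mme at 0.08 ± 0.07, with adjusted p of 0.795, 0.826 and 0.906.

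The 2 labels gave different values for the genes that came first by library name. Lrsam1 was at -0.09 ± 0.05 by title, with 53.1 to 65.5 CPM in C201R and 56.5 to 68.7 CPM in WT libraries, and Bicd2 also at -0.09 ± 0.05. Their groups overlapped by title, as did those of all 34 genes, where 0.349% of all genes tested did not. Vcp stood at -0.02 ± 0.03. The sign differed between the labels for 6 of the 34 genes. Mme went from -0.14 by library name to 0.08 by title and Smn1 from 0.01 to -0.11 ± 0.06, while Gjb1, Rab7, Sbf2 and Tardbp stayed within 0.09 of 0 by both labels. The 2 comparisons share 8 libraries in the same groups and place the other 4 in opposite ones, so their values are not independent.

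Over the 8 libraries whose labels agree, 4 against 4, none of the 34 genes passed with edgeR, where 0.163% of all genes tested did, while DESeq2 called Bicd2 and 1.38% of all genes, and voom with quality weights called Bicd2 and Sptlc1 and 1.5% of all genes. At an unadjusted p under 0.05 stood 10 of 34 (29.4%), against 13.0% of all genes tested, with 9 negative, against 6.96%, and 1 positive, against 6.01%. The count was 4 without library 7 and 5 without library 1. When each library was left out, the share of all genes ran from 7.70% to 16.1%. With limma on log2(TPM + 1) the count was 4, of which 2 were negative, against 10.6% of all genes. On that scale 18 of the 34 were negative with a median of -0.0060, beside 33.5% and a median of 0.040 over all genes. Without the muscle-rich libraries the edgeR count was 2, where 655 of all 17765 genes tested stood under 0.05. Sptlc1 stood at 28.1 to 29.9 CPM in C201R and 31.6 to 33.5 CPM in WT libraries, without overlap, with a log2 difference of -0.18 ± 0.04 and an adjusted p of 0.114. Bicd2, at 124 to 136 CPM against 141 to 156 CPM, did not overlap either, and had -0.19 ± 0.04 with an adjusted p of 0.121 from edgeR and 0.00652 from DESeq2. Over 18 alternatives the adjusted p of Bicd2 ran from 0.00652 to 0.9998. In all 9 of the 34 genes lay lower in C201R without overlap in this subset, where 4.71% of all genes did. These 9 were Sptlc1, Bicd2, Lrsam1, Atp7a, Reep1, Mtmr2, Dnajb2, Wnk1 and Sptlc2. None of the 34 lay higher without overlap, where 679 of all 17765 genes tested did. Lrsam1 had -0.19 ± 0.05 and an adjusted p of 0.1495, and Ighmbp2 0.14 ± 0.05 and an adjusted p of 0.278. The 95% intervals again lay within 1.25-fold for 32 of 34 genes, all but Atp7a, at -0.26 ± 0.08, and Trpv4. High Xist was split 3 of 4 against 1 of 4 in this subset, and its part in the values was not tested.

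The mix of transcripts made from each gene was read from the weighted transcript length, the mean length of a gene's transcripts weighted by their estimated shares. It could be tested for 23 of the 34 genes and 9651 genes in all. None of the 23 passed by library name with limma, where 0.0% of all genes did, and 5 of them stood at an unadjusted p under 0.05, against 5.22% of all genes. That count was 3 without library 1, 2, 6, 7, 10 or 12, and the share of all genes ran from 5.02% to 5.46% when each library was left out. With no sex term the count was 2, where 489 of 9651 genes stood under 0.05. By title none passed either, again beside 0.0% of all genes, and 1 gene, Mfn2, stood under 0.05 unadjusted, against 4.51%. Leaving out each library gave 0 to 2, where the share of all genes ran from 4.13% to 5.36%. The lowest p by library name belonged to Sptlc2, whose length was 2578, 2688 and 2886 bases (lowest, median, highest) in C201R and 2839, 2948 and 3178 bases in WT libraries. Library 3 alone of the C201R libraries reached into the WT range. The log2 difference was -0.16 ± 0.03, with an adjusted p of 0.517 and a range of 0.316 to 0.768 over the alternatives. Smn1 came next at 0.07 ± 0.02, toward longer transcripts in C201R, and Sbf2 at -0.06 ± 0.02, with adjusted p of 0.676 and 0.696. Lengths of 10 genes, among them Sod1, Sptlc1 and Spast, were the same in every library.

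**Figure D4:**
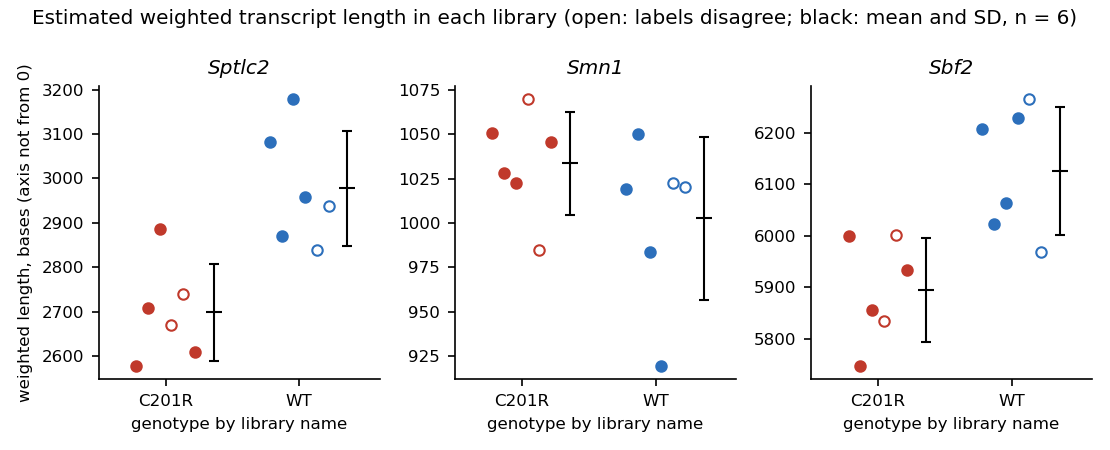
Estimated weighted transcript length in bases of Sptlc2, Smn1 and Sbf2 in each library, by the genotype in the library name, with the mean and SD of 6 beside the points and open points for libraries whose labels disagree. Sptlc2 reads 2578 to 2886 bases in C201R and 2839 to 3178 bases in WT, so the groups overlap.

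Some of the 34 genes followed the number that the titles give each library. With genotype by library name and titled sex in the fit, 5 of 34 (14.7%) passed, against 6.38% of all genes tested, and DESeq2 called 7, against 8.95% of all genes. Of the 5, 3 rose, against 2.41% of all genes, and 2 fell, against 3.97%. These genes were chosen for passing, after their values were seen. Dnm2 rose by 0.021 ± 0.005 log2 units per library number (adjusted p = 0.0287), Bscl2 by 0.017 ± 0.004 (adjusted p = 0.0337) and Hint1 by 0.017 ± 0.004 (adjusted p = 0.0366). Fgd4 fell by 0.028 ± 0.006 per number (adjusted p = 0.0310) and Tardbp fell by 0.022 ± 0.005 (adjusted p = 0.0291). For Dnm2 this ran from 85.1 CPM in library 2 to 102 CPM in libraries 9 and 11, and for Tardbp from 187 CPM in library 2 to 154 CPM in library 11. The 4 highest-numbered libraries held the 4 lowest Fgd4 values and low Tardbp values, although library 6 had a Tardbp value as low as theirs. No call among the 34 remained without library 2, 5, 9 or 10, and 1 was made without library 1 or 11 and 2 without library 3 or 7. Calls over all 17765 genes fell in the same fits, from 1134 to 258, 394, 61 and 247 without library 2, 5, 9 and 10. They fell to 294 and 511 without library 1 and 11, and to 545 and 636 without library 3 and 7. With the title genotype in place of the library name 2 genes passed, Dnm2 and Bicd2, against 3.16% of all genes, and without any genotype term 1, Dnm2, against 1.68%. The labels do not say what the number orders. Markers of blood summed to 3801 to 10331 TPM in libraries 1 to 6 and 1563 to 4065 TPM in libraries 7 to 12, and their part in these slopes was not tested.

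**Figure D5:**
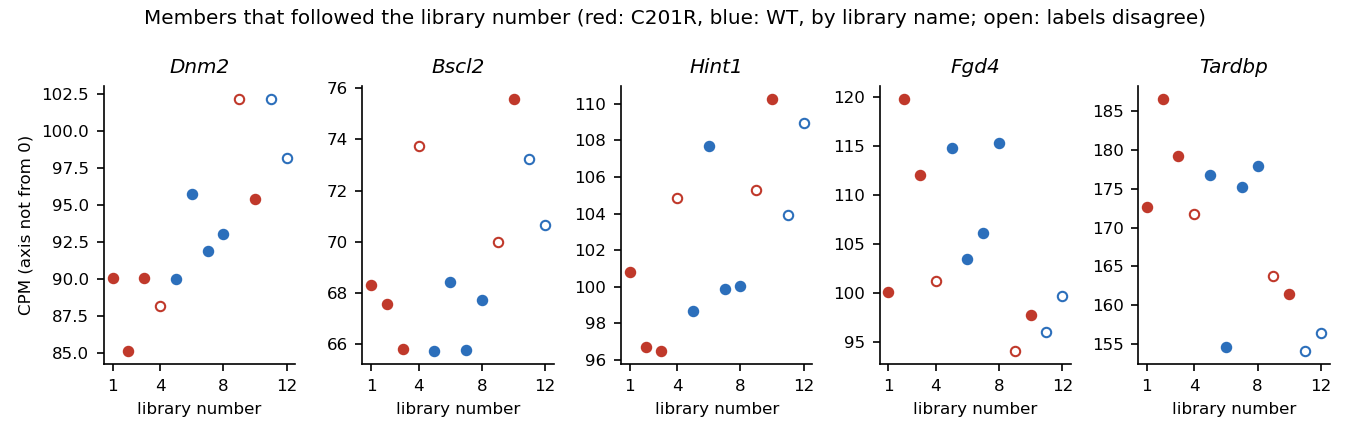
CPM of the 5 genes that passed the test of library number, against that number, coloured by the genotype in the library name with open points where labels disagree. Dnm2, Bscl2 and Hint1 lie higher and Fgd4 and Tardbp lower at high numbers; Dnm2 runs from 85.1 CPM in library 2 to 102 CPM in libraries 9 and 11.

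The remaining genes of these diseases were counted from 3 lists with 133 symbols, of which 127 were tested. By library name 6 passed (4.72%, against 0.715% of all genes tested), 2 higher and 4 lower, 23 stood at an unadjusted p under 0.05 (18.1%, against 12.8%), and the median was -0.020 against 0.0023 over all genes. The 53 tested genes of the neuropathy list held 5 of these, the 39 of spastic paraplegia 1 and the 36 of motor neuron disease none, while by title none of the 127 passed and 6 (4.72%) stood at an unadjusted p under 0.05, against 6.77% of all genes. Nefl and Nefh, the light and heavy neurofilament chains of large axons, were lower in C201R. Nefl stood at 1586, 1649 and 1686 CPM (lowest, median, highest) in C201R and 2011, 2121 and 2304 CPM in WT libraries, a log2 difference of -0.37 ± 0.03 with an adjusted p of 0.000144. The groups were far apart. Hspb1, a small heat shock protein, fell by 0.61 ± 0.11 (adjusted p = 0.0200). Gars itself rose, from 136 ± 4.25 to 150 ± 4.20 CPM (log2 0.15 ± 0.03, adjusted p = 0.0343), and Aldh18a1, which makes a proline precursor, by 0.23 ± 0.04 (adjusted p = 0.0239). By title these 5 genes had adjusted p of 0.709 to 0.934. Under the 23 alternatives of the library-name comparison Nefl passed in all 23, Nefh in 20, Hspb1 in 17, Aldh18a1 in 16 and Gars in 10. Chodl, Kcnj14, Nefl, Nefm and Nefh formed a list of motor neuron and neurofilament genes beside them. Of these, 5 of 5 passed as lower by library name, where 97 of all 17765 genes tested did. Nefl and Nefh were already counted above. Of 12 genes of the integrated stress response 6 passed as higher, namely Atf4, Atf5, Chac1, Fgf21, Sesn2 and Slc7a1, where 30 of all genes did. Both lists were drawn up with earlier results of these data known. By title none of either list passed. Fgf21 stood at 3.42 to 4.13 CPM in C201R and 0 to 0.038 CPM in WT libraries by library name. By title it stood at 0 to 4.13 and 0 to 3.76 CPM. Atf4 overlapped by library name too, at 90.7 to 101 CPM in C201R and 78.1 to 92.6 CPM in WT libraries. Which label gives the genotype of libraries 4, 9, 11 and 12 was not tested. The sums of motor neuron markers given above did not overlap between the library-name groups, and their part in the differences of the 34 genes was not tested.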

How the data were processed

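PolyA RNA of whole spinal cord was sequenced from 12 libraries, each with its own deposited table. The authors' tables hold RSEM output: per the file headers, an expected count per gene, TPM and a transcript length weighted by isoform share. Per the submitters' processing notes, the tools were RSEM 1.2.12 and Bowtie2 2.2.0. No build or annotation is given in the sources used here. RSEM divides reads that fit several genes, and 18.9% of the deposited expected counts were not whole. They were rounded.

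The filter was filterByExpr over the 4 titled groups and the scaling TMM. Genotype was tested by quasi-likelihood in edgeR 4.0.16 (R 4.3.3), with a term for titled sex, Benjamini-Hochberg adjustment over 17765 genes and a threshold of 0.05. CPM are the scaled counts. SEs are Wald errors of the fit, and 95% intervals are unadjusted. Lengths were tested with limma 3.58.1 on log2 length, for genes of over 50 counts on average whose length varied. No 2 of the 12 libraries agreed within sampling noise, with a chi-square per degree of freedom of at least 6.50 over the 66 pairs. Alternatives were RLE size factors, DESeq2 1.42.0, all genes unfiltered, limma on log2 of TPM plus 1 or plus 0.1, 1 surrogate variable (sva 3.50.0), voom with quality weights, only genes with a mean above 1 CPM, no sex term, library number as a term, leaving out 3 libraries with over 0.15% skeletal muscle transcripts, and leaving out each library in turn; for lengths, over 500 counts, length in bases and no sex term.

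The 34 genes, the marker lists and the other disease lists were chosen with earlier results of these data known. So were the motor neuron and neurofilament list and the stress response list beside them. No list was therefore tested as a set. Named are the 5 genes of lowest p in each direction by library name, 3 by title, the 3 highest and lowest in level and in spread, and called genes of the other lists; further genes were named to account for every member, after their values were seen. Symbols not matched, among them Slc18a3 and C9orf72, were not analysed here, and 1 called gene of the other lists is not reported here. Positions are those of GENCODE M21 (GRCm38), matched by Ensembl gene ID. Joins and plots used Python 3.11.15. The edgeR fit of each comparison and the limma fit of lengths were first tested on simulated data with known changes. The alternatives were not tested in that way.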

Additional observations from a re-analysis of the deposited data

Results flagged for a closer look

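In groups of 6 libraries, the gap between the highest or lowest library and its nearest neighbour was compared with the range of the group, for CPM by both labels and for weighted transcript length by library name. Of 182 groups, 7 held a library that stood apart, and chance marks about 1 group in 20. Mfn2 was lowest in library 2, at 192 CPM, against 205 to 211 CPM in the other C201R libraries by library name and 205 to 209 CPM by title. Inf2 was highest in library 9, at 129 CPM, against 109 to 116 CPM in the other C201R libraries by library name. Ighmbp2, the only gene with a positive difference at an unadjusted p under 0.05, was highest in library 1, at 15.4 CPM, against 14.1 to 14.6 CPM in the other C201R libraries by library name. Atp7a was highest in library 6, at 15.2 CPM, against 12.5 to 13.1 CPM in the other WT libraries. The weighted length of Atp7a was 3694 bases in library 2, against 4774 to 4873 bases in the other C201R libraries, and 4499 bases in library 8, against 4861 to 4891 bases in the other WT libraries. Atp7a averaged 396 counts per library, and its lengths gave no call by either label.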

How the results depend on the processing

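Library-name comparison: of the 34 genes, DESeq2 called 2, voom with quality weights 1 and the fit with no sex term 1, where edgeR called 0; leaving out each library gave 0 to 2, the 2 without library 9. Over all genes, beside 127, DESeq2 called 318, limma 41 and 42 with pseudocounts of 1 and 0.1, the fit with a library number term 235 and that without the 3 muscle-rich libraries 22; leaving out each library gave 54 to 221. Higher against lower calls moved from 30 and 97 to 16 and 25 with limma at pseudocount 1. By title, DESeq2 called 18 genes and the library number term 8, none of the 34. For the 8 libraries of matching labels, DESeq2 called 1 of the 34 and voom 2. Over all genes, beside 29, DESeq2 called 245, no filter 91, limma 12 and 12 (7 higher, 5 lower, against 6 and 23), voom 267, no sex term 70, the library number term 14 and the fit without muscle-rich libraries 1; leaving out each library gave 5 to 119, the latter without library 10.

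For library number, no genotype term left 1 of the 34 and 299 genes, and the title genotype term 2 and 561, beside 5 and 1134; leaving out each library gave 0 to 5 and 61 to 1708. Of the other disease genes, beside 6, DESeq2 called 10, limma 2 and 2, the library number term 13 and the fit without muscle-rich libraries 2; leaving out each library gave 3 to 7. Weighted length gave 0 to 1 genes by library name when each library was left out. Signs turned for Sbf1 (-0.028 without muscle-rich libraries), Tardbp (-0.047 with the library number term) and Litaf (-0.086 without muscle-rich libraries; -0.018 to 0.10 leaving out each library, negative without library 1). Among 733 values of single genes, 646 kept their sign and side of the threshold, 74 lost and 9 gained a call, and 4 turned sign. The cause was not tested. No paired analysis was possible because the labels name no pairs of libraries.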
